A study of Homo sapiens with 12 samples.

Results

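TIP60 siRNA was compared with control siRNA in MCF10A cells that stably carried *KD-TIP60, a copy of TIP60 that the siRNA does not target and that has no catalytic activity. "KD" in this label stands for the catalytically dead construct and not for a knockdown. The comparison rests on the 4 libraries of this line out of 12 in the series, namely siTIP60 replicates 1 and 2 and siControl replicates 1 and 2, harvested 72 h after transfection and paired by replicate number. All 4 libraries carry the construct, so the control cells also hold the inactive copy, in addition to their own KAT5 gene. The other 8 libraries come from cells with the MSCV empty vector and from cells with *WT-TIP60, the resistant copy with activity, each with both siRNAs and 2 libraries per group, and they enter as background. Whether each line is a clone or a pool, which promoter drives the construct and whether replicates are separate cultures is not stated in the labels. The p-values therefore measure the spread between these libraries, which may be technical.

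MCF10A cells are human epithelial cells from breast that form no tumours. TIP60, encoded by KAT5, is the lysine acetyltransferase of a large chromatin complex (the NuA4 or TIP60 complex) that acetylates histones and other proteins, among them p53 and the kinase ATM, and takes part in transcription and DNA repair. A copy without catalytic activity separates what the enzyme does by acetylation from what the protein does as a scaffold. A cassette exon is an internal exon that is either kept in the mature transcript or skipped together with its flanking introns, and its inclusion level says which share of the transcripts keeps it, on a scale from 0 (always skipped) to 1 (always kept). Such choices are set during transcription by SR proteins, hnRNPs and other RNA-binding proteins, and they tune the domains of cytoskeletal, adhesion and signalling proteins.

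The deposited tables listed 8378 cassette exon events in any of the 4 *KD-TIP60 libraries and 5488 in all 4. Of these, 3002 events with 2923 different exons in 2086 genes had 10 or more isoform-specific reads (reads that tell the form with the exon from the form without it) in each of the 4 libraries. At the edge of this minimum, 119 events had 10 such reads in their lowest library and were kept, and 111 had 9 and were not. Inclusion levels were compared with limma over these 3002 events, with the replicate number as a block, and p-values were adjusted by the Benjamini-Hochberg method with a threshold of 0.05. In the *KD-TIP60 libraries 10 exons passed, and 9 of them were lower with TIP60 siRNA.

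The sequences of 7 cassette exons show what was kept or skipped. The first 5 are exons that fell, followed by the 1 that rose, in PPP3CB, and by the ADD3 exon, which had the largest higher level among the named exons without passing. Each is printed 5′ to 3′ on the transcribed strand, from GENCODE release 29 transcripts (GRCh38). Capitals mark the cassette exon, and the 12 lower-case bases on either side are the ends of its neighbour exons in the spliced transcript.
MYL6: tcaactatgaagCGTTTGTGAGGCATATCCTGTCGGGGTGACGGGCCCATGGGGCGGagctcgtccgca
MARK3: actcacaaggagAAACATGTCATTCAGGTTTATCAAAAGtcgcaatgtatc
ABI1: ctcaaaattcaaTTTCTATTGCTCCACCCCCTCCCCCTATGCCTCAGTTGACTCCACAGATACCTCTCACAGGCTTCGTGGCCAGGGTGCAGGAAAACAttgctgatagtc
SBF1: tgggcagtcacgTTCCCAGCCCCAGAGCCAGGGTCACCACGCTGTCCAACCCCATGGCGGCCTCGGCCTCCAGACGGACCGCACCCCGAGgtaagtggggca
AKT2: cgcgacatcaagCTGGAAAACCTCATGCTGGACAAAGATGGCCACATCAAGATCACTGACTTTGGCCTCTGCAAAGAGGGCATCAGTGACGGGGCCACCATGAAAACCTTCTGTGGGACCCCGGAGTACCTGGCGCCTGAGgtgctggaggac
PPP3CB: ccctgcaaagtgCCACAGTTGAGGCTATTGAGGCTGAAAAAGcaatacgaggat
ADD3: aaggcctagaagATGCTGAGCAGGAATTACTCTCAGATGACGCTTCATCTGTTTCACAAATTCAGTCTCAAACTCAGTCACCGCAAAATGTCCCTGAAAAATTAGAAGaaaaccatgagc
The positions are chr12:56160626-56160670 (plus strand) for MYL6, chr14:103498502-103498528 (plus) for MARK3 and chr10:26755655-26755741 (minus) for ABI1. They are chr22:50457034-50457111 (minus) for SBF1, chr19:40236257-40236385 (minus) for AKT2, chr10:73439872-73439901 (minus) for PPP3CB and chr10:110132305-110132400 (plus) for ADD3. All 7 exons have a length that is a multiple of 3, and 6 are coding throughout. In MYL6 the coding sequence of the form with the exon ends inside it, with its last coding base at position 56160651.

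Depth and the check of the labels came first. The 4 libraries held between 1277953 reads (siTIP60 replicate 2) and 2280488 reads (siTIP60 replicate 1) assigned to 1 or both isoforms of an event, and a kept event had a median of 47.5 to 102 isoform-specific reads. The share of event reads that fit neither isoform was 52.8% and 52.9% in the libraries numbered 1 and 64.7% and 64.5% in those numbered 2. Of 10 epithelial markers, CDH1, ESRP1, ITGB4, LAMA3 and TP63 had a cassette event in all 4 libraries, with summed event reads per 1000000 such reads of the library (RPM) of 2667 and 3114 in the control libraries and of 3748 and 4143 in the others. Of 7 mesenchymal markers only FN1 had one (818 and 237.5 against 2478 and 819), and of 6 immune markers none did. The part of these marker levels in the results that follow was not tested. In such bulk samples fewer cells of a type and less RNA per cell cannot be told apart.

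KAT5, the target of the siRNA, has 1 listed event, a coding exon of 156 nt (chr11:65713348-65713503, ENSG00000172977.12). Reads of the form with the exon numbered 25 and 10 in the control libraries of *KD-TIP60 cells and 9 and 0 in the TIP60-siRNA libraries. In RPM this was a ratio of 0.328 in the first pair, and in the second pair 0 reads, with a limit of 3 counts, allow a ratio of up to 0.368. Reads of the form without the exon numbered 2054 and 55 against 2019 and 36 in the same order, ratios of 0.896 and 0.802 in RPM. Its level was 988 and 35.1 RPM against 885 and 28.2, so it differed far more between replicate numbers than between siRNAs. In empty-vector cells the same form had 18 and 1 reads with control siRNA. So the form without the exon was abundant only in the lines with a construct. Within each *KD-TIP60 pair it was at a similar level under both siRNAs, while the form with the exon was lower in both pairs. In empty-vector cells the form with the exon had 17.2 and 5.84 RPM under control siRNA against 2.52 and 1.52, and in *WT-TIP60 cells 11.6 and 5.31 against 2.74 and 1.34, also lower in both pairs. These differences were given no test.

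Exon inclusion with TIP60 siRNA in cells with the inactive copy was lower more often than higher. Of the 3002 events 10 were called (0.333%), 9 lower (0.3%) and 1 higher (0.0333%). At an unadjusted p under 0.01 there were 118 events (3.93%), 101 lower (3.36%) and 17 higher (0.566%), and under 0.05 there were 344 (11.5%), 267 lower (8.89%) and 77 higher (2.56%). The libraries of the siRNAs did not overlap in 671 events (22.4%), 471 lower (15.7%) and 200 higher (6.66%). Both TIP60-siRNA libraries lay at least 0.1 below both control libraries in 99 events (3.3%) and at least 0.1 above them in 25 (0.833%), 124 in all (4.13%). Counted by pairs, 917 events were lower and 430 higher in both pairs, 825 went opposite ways, and 830 had the same value under both siRNAs in at least 1 pair. In thousandths, the median difference was 0 in the first pair and −10 in the second. The siTIP60 library of the second pair had a median of 47.5 isoform-specific reads per kept event, against 71 in its control. No read of the form without the exon was counted in 657 kept events, and none of the form with it in 102. The part of depth in these counts of lower and higher events was not tested. The calls depend on the libraries that set the spread: limma called 0 events from the 4 *KD-TIP60 libraries alone (313 at an unadjusted p under 0.05) and 1 event, MARK3, without the replicate block. It called 0, 2, 23 and 3 events without siControl replicate 1, siControl replicate 2, siTIP60 replicate 1 and siTIP60 replicate 2, respectively. A quasi-binomial model of the reads with the block called none of the 10 and 1 other event, in LRRC75A-AS1.

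**Figure D1:**
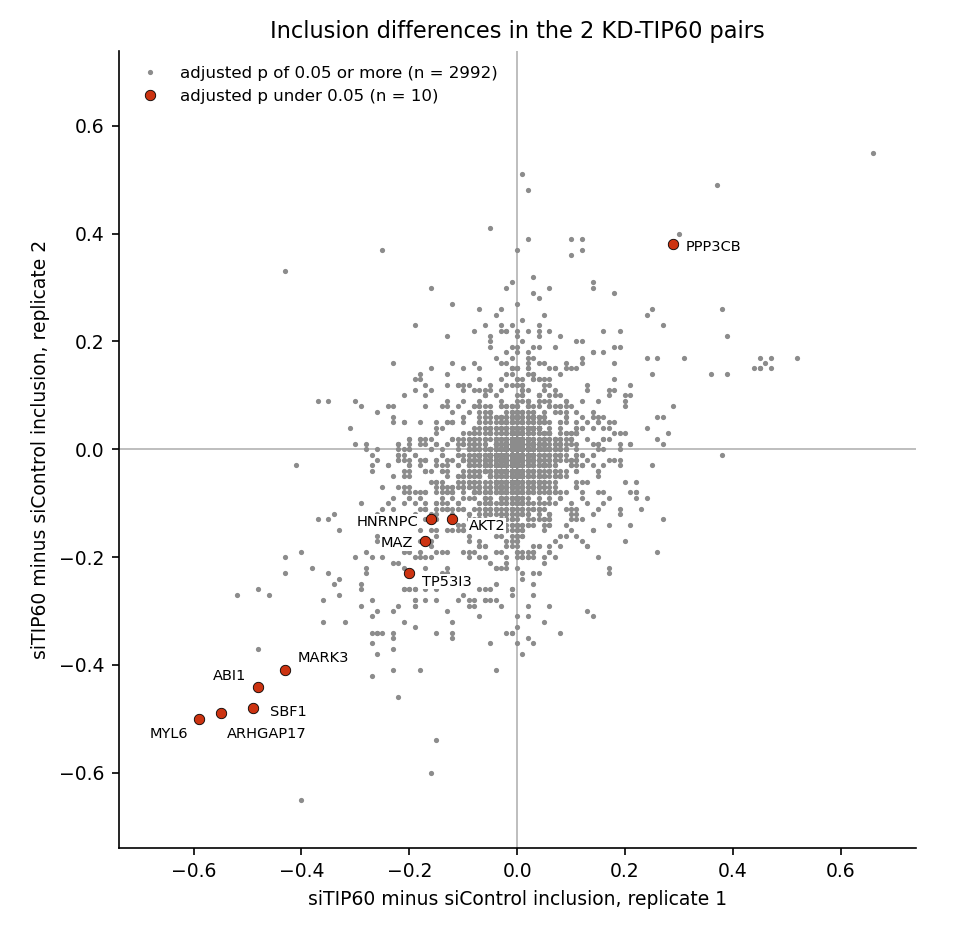
Difference in inclusion level between siTIP60 and siControl for each of the 3002 kept events in *KD-TIP60 cells, replicate 1 on the x axis and replicate 2 on the y axis. The 10 called exons (red, named) have the same sign in both pairs, 9 of them in the lower left quadrant. Among all 3002 events, 917 were lower and 430 higher in both pairs.

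Of the 9 falls, 2 were in genes of the actin and myosin cytoskeleton, among them the largest, in MYL6. MYL6 encodes an essential light chain of non-muscle and smooth muscle myosin II, and its 45-nt exon alters the carboxyl end of the protein. The exon was included at 0.79 and 0.80 in the control libraries and at 0.20 and 0.30 in the TIP60-siRNA libraries. Reads of the form with it numbered 1477 and 630 against 355 and 150, and reads of the form without it 206 and 77 against 741 and 180. Both TIP60-siRNA libraries lay far below both controls, a change of −0.545 (SE 0.0584, limma adjusted p = 0.0317). ABI1 is a subunit of the WAVE complex, which drives branched actin assembly. Its 87-nt coding exon fell from 0.68 and 0.71 to 0.20 and 0.27 (−0.46, SE 0.0559, limma adjusted p = 0.0494).

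ADD3 encodes an adducin, a protein that joins spectrin to the ends of actin filaments. Its exon stood at 0.05 and 0.04 with control siRNA and at 0.71 and 0.59 with TIP60 siRNA. This was the largest difference of all named exons (0.605, SE 0.085), but it did not pass (limma adjusted p = 0.0659), and it rests on 2 and 0 reads with the exon in the control libraries and 35 and 9 in the others.

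Regulators of small GTPases, polarity and phosphoinositides formed a further group of falls. ARHGAP17 is a GTPase-activating protein. Its 234-nt coding exon (chr16:24939364-24939597) was at 0.60 and 0.82 with control siRNA and at 0.05 and 0.33 with TIP60 siRNA. The libraries numbered 2 lay higher under both siRNAs, so that the change was nearly the same in both pairs (−0.52, SE 0.0292, limma adjusted p = 0.00472, the smallest of all events). SBF1, an inactive member of the myotubularin phosphatases, had the same arrangement in its 78-nt exon, with 0.61 and 0.82 against 0.12 and 0.34 (−0.485, SE 0.0371, limma adjusted p = 0.0113). MARK3 is a kinase that phosphorylates microtubule-associated proteins and sets cell polarity. Its 27-nt exon fell from 0.47 and 0.48 to 0.04 and 0.07, with 59 and 37 reads of the form with the exon against 5 and 3 (−0.42, SE 0.0348, limma adjusted p = 0.0123). A second MARK3 exon of 45 nt had 0.17 and 0.14 against 0.09 and 0.08 and did not pass (limma adjusted p = 0.382).

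AKT2, a serine-threonine kinase of insulin signalling, and the calcineurin subunit PPP3CB moved in opposite directions. The 129-nt exon of AKT2, which encodes part of the kinase domain with its activation loop, was nearly always included with control siRNA (0.94 in both libraries) and less so with TIP60 siRNA (0.82 and 0.81). The change of −0.125 (SE 0.013, limma adjusted p = 0.0317) was the smallest of the falls that passed. PPP3CB encodes a catalytic subunit of the calcium-dependent phosphatase calcineurin. Its 30-nt exon rose from 0.59 and 0.50 to 0.88 in both TIP60-siRNA libraries (0.335, SE 0.0355, limma adjusted p = 0.0317). It was the only exon that rose.

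The remaining called exons lie in nuclear proteins and a p53-induced enzyme. HNRNPC is an abundant pre-mRNA binding protein that itself guides exon choice. An exon of 26 nt in its 5' UTR (chr14:21263311-21263336) was at 0.81 and 0.80 with control siRNA and at 0.65 and 0.67 with TIP60 siRNA (−0.145, SE 0.0113, limma adjusted p = 0.0113). MAZ, a zinc finger transcription factor, had a partly coding exon of 225 nt (chr16:29809540-29809764) at 0.41 and 0.34 against 0.24 and 0.17 (−0.17, SE 0.0199, limma adjusted p = 0.0468). TP53I3 encodes a quinone oxidoreductase that p53 induces. Its 197-nt coding exon (chr2:24079444-24079640), which is not a multiple of 3, fell from 0.97 and 0.96 to 0.77 and 0.73 (−0.215, SE 0.0265, limma adjusted p = 0.0494). Reads of the TP53I3 form with the exon numbered 1002 and 1170 in the controls against 3052 and 3266, and those without it 12 and 20 against 355 and 540. Both forms were thus more abundant with TIP60 siRNA, the skipped form by the larger factor.

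**Figure D2:**
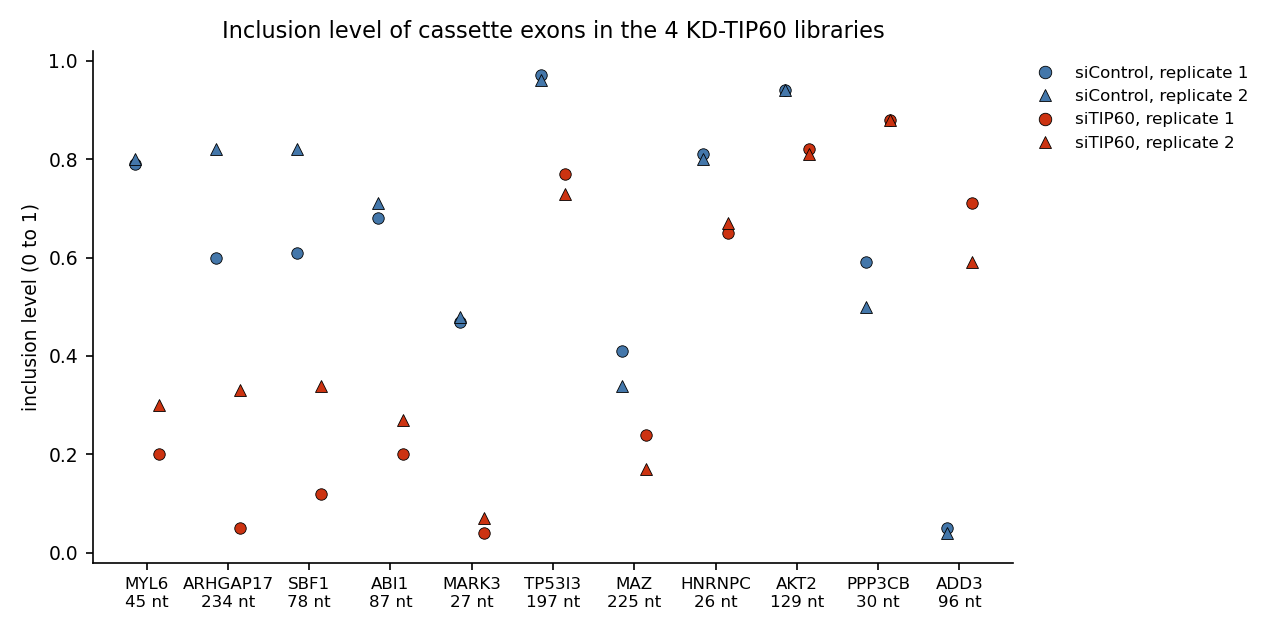
Inclusion level (0 to 1) of the 10 called exons and the ADD3 exon in each *KD-TIP60 library, with the exon length under the gene name; circles are replicate 1 and triangles replicate 2. The siControl (blue) and siTIP60 (red) libraries do not overlap for any of the 11 exons, which was a condition for naming them. Of all 3002 kept events 22.4% met it. In ARHGAP17 and SBF1 the libraries numbered 2 lie above those numbered 1 in both groups.

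The 10 called exons were 26 to 234 nt long, 8 of them a multiple of 3, 7 coding throughout and 2 in part. At the wider limit of an unadjusted p under 0.01, exons on primary chromosomes counted once gave 96 lower and 16 higher exons. The lower exons had a median length of 129.5 nt, with 63.5% a multiple of 3 and a median control inclusion of 0.87. Over all 2744 kept exons these values were 124 nt, 56.5% and 0.855. The higher exons had a median control inclusion of 0.3125, and 62.5% were a multiple of 3. Exons of 50 nt or less made up 8.33% of the lower, 18.8% of the higher and 6.27% of all exons. These values are given as a description, with no test.

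Of the exons that came next by p without passing, DDR1, ITGA6 and THSD1 were lower. DDR1 encodes a receptor tyrosine kinase for collagen, and its 111-nt exon was at 0.74 and 0.62 against 0.55 and 0.34; its reads are also listed for copies of the locus on alternate contigs. ITGA6 is the alpha subunit of laminin-binding integrins. Its 130-nt exon, which lies in the part for the cytoplasmic tail, was at 0.89 and 0.96 with control siRNA and at 0.53 and 0.68 with TIP60 siRNA. THSD1, a membrane protein with a thrombospondin repeat, was at 0.62 and 0.77 against 0.36 and 0.39. The limma adjusted p was 0.0659 for each of the 3.

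Higher levels that did not pass were seen in the G protein chaperone RIC8B (0.40 and 0.22 against 0.77 and 0.71), the ubiquitin ligase UBOX5 (0.32 and 0.31 against 0.70 and 0.57) and NKIRAS2, an inhibitor of NF-kappaB signalling (0.65 and 0.56 against 0.83 and 0.72). HNRNPA2B1, whose 36-nt exon distinguishes the B1 from the A2 protein, had 0.09 and 0.15 against 0.27 and 0.44. SMARCA4, the ATPase of SWI/SNF remodellers, and SZRD1 differed by 0.04 and 0.12. The limma adjusted p-values of these 6 exons lay between 0.118 and 0.198. For the NKIRAS2 exon no read fitted only the form without it in any of the 4 libraries (18, 16, 33 and 22 reads fitted only the form with it), so its levels are MISO's estimates without a counted skipped form, and an overlapping NKIRAS2 exon with the same start stood at 0.97 to 0.99. Of the 3002 kept events, 657 had no read of the form without the exon in these libraries and 102 none of the form with it, 25.3% together, whereas the rarer form of each of the 10 called exons had 50 or more reads over the 4 libraries.

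Gene lists were described by their members with a kept event, against 9 lower and 1 higher called genes among 2086. The median inclusion difference over the 2821 events on primary chromosomes was −0.005. Of 29 genes for kinase and phosphatase signalling, 3 fell (AKT2, MARK3 and SBF1) and 1 rose (PPP3CB), with a median of −0.025 over 41 events. Of 27 genes of the epithelial-mesenchymal splicing programme, the exon choices known to differ between epithelial and mesenchymal cells, 2 fell (ABI1 and MARK3) and none rose, with a median of −0.02. At an unadjusted p under 0.05 this list held 9 genes with a lower exon, against 232 of all 2086. Among them were ARHGEF1, a guanine nucleotide exchange factor (0.93 and 0.89 against 0.45 and 0.52, limma adjusted p = 0.142) and CLSTN1, a calsyntenin (0.20 and 0.12 against 0.03 and 0.04). FN1, the matrix protein fibronectin, had its 273-nt exon for extra domain B at 0.10 in both control libraries and at 0.02 and 0.03 with TIP60 siRNA (limma adjusted p = 0.421).

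Of 28 genes for actin, myosin and spectrin, 2 fell (MYL6 and ABI1) and none rose, with a median of −0.005. A further 5 were lower at an unadjusted p under 0.05. They were the formin DIAPH1 (0.97 in both control libraries against 0.82 and 0.84), the myosin phosphatase partner MPRIP (0.87 and 0.60 against 0.44 and 0.37), PXN, SYNE2 and TPM3. Higher at that limit, besides ADD3, was the spectrin SPTAN1 (0.67 and 0.78 against 0.91 and 0.95). Of 8 regulators of small GTPases 1 fell, ARHGAP17. Of 21 p53 targets and apoptosis genes 1 fell, TP53I3, and PDCD10, an adaptor of a cell junction complex, was at 0.10 and 0.24 against 0.22 and 0.33 (limma adjusted p = 0.101).

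Among genes that act on RNA, 1 of 10 hnRNP genes fell (HNRNPC) and 0 of 7 SR and SR-related genes passed in either direction. None of 11 other splicing regulators passed, although SF1, which recognises the branch point, was at 0.38 and 0.52 against 0.28 and 0.37 (limma adjusted p = 0.204), and RBM4 at 0.80 and 0.85 against 0.64 and 0.70 (0.186). In RNPS1 and SRSF7 the differences were −0.125 and −0.06, with limma adjusted p-values of 0.452 and 0.531. None of 15 genes for RNA decay and translation passed, where EEF1D and EIF4G1 differed by −0.05 and −0.07.

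In the TIP60 complex 0 of 4 genes passed, and its members BRD8, a bromodomain subunit (0.54 and 0.42 against 0.47 and 0.55), and MORF4L2 (0.95 and 0.54 against 0.89 and 0.46) overlapped between the siRNAs. Of 17 chromatin genes none passed. At an unadjusted limma p under 0.05, 5 of them were lower and 3 higher, among the latter SMARCA4, and the median was 0.005 over 32 events. HDAC7, a class IIa histone deacetylase, was at 0.58 and 0.77 against 0.25 and 0.50 (−0.30, limma adjusted p = 0.0659), and JADE2, a scaffold of histone acetyltransferase complexes, differed by −0.12 (0.102). None of 13 DNA damage genes passed, where the mismatch repair protein PMS1 differed by −0.06 and the checkpoint kinase CHEK1 by −0.07. None of 17 cell cycle genes passed, where the spindle proteins NUMA1 and PRC1 differed by −0.08 and −0.04. For CHEK1, NUMA1 and PRC1 no read fitted only the form without the exon. None of 7 epithelial markers passed (CDH1 −0.03, PKP2 0.03), nor either of 2 mesenchymal markers (FN1 above and DCN 0.005), and 0 genes of the wider immune list of 14 had a kept event.

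The other lines were used to ask whether the response with the inactive copy differed from that with an active copy or with no resistant copy. Each line has its own control libraries. All 10 exons called in *KD-TIP60 cells had the same direction in *WT-TIP60 and in empty-vector cells. In *WT-TIP60 cells 3 of the 10 passed (ARHGAP17, SBF1 and AKT2), where 0.133% of all events were called, and in empty-vector cells 4 of the 10 (ARHGAP17, SBF1, MARK3 and PPP3CB), also against 0.133%. These shares are not an independent comparison, since the effects of the 3 lines come from 1 fit. Each of these exons has the same SE in every line (0.0292 for ARHGAP17). Exons that passed in *KD-TIP60 cells were picked in part for a small SE, which favours passing in the other lines too. For MYL6 the fitted difference was −0.545 with the inactive copy, −0.465 with the active copy and −0.505 with the empty vector. For AKT2 it was −0.125, −0.125 and −0.105. For MARK3 it was −0.42, −0.22 and −0.365, so that the difference between the inactive and the active copy was −0.20 (SE 0.0492), with a limma adjusted p of 1.

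Limma called 0 of 3002 events (0%) for a difference in siRNA effect between *KD-TIP60 and *WT-TIP60 cells, where 89 (2.96%) had an unadjusted p under 0.05. It also called 0 (0%) between *KD-TIP60 and empty-vector cells, where 84 (2.8%) did. The quasi-binomial model with the block also called 0 in both. The difference was larger in *KD-TIP60 than in *WT-TIP60 cells for 8 of the 10 exons, but they were picked for their size in *KD-TIP60 cells. The exon of smallest p in both tests was in NKIRAS2, the exon with no counted skipped form in *KD-TIP60 cells, which differed by 0.17 with the inactive copy, −0.08 with the active copy and −0.105 with the empty vector. The next exons against *WT-TIP60 were in HNRNPC (−0.145 against −0.06), the deubiquitinase USP48 (−0.06 against 0.06), ARHGAP8 (0.03 against −0.175) and the plakin DST (−0.02 against −0.175). Against the empty vector they were in ORMDL1 (0.01 against −0.18), the scramblase family member ANO10 (−0.18 against 0.045), PDCD10 (0.105 against −0.01) and INO80E (0.09 against −0.095). In *KD-TIP60 cells ANO10 also had 0 reads of the form without the exon, and USP48 and DST had 0 to 2 a library. These tests do not show that the responses are alike, since 2 libraries a group leave wide errors.

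**Figure D3:**
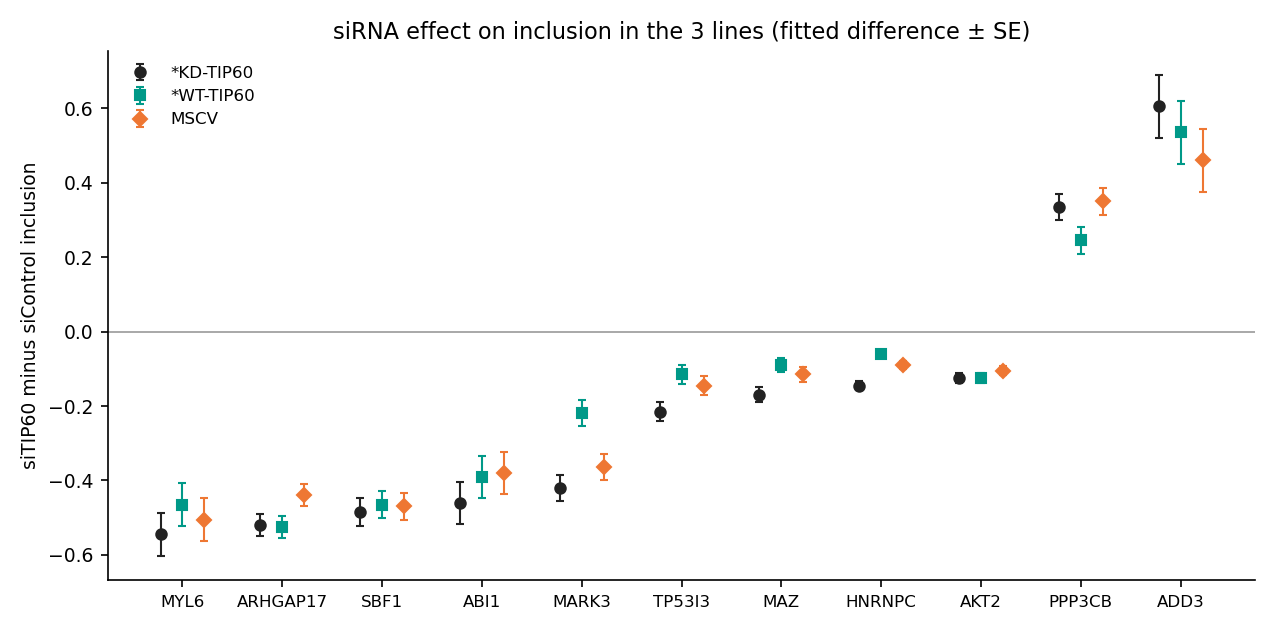
Fitted difference in inclusion between siTIP60 and siControl (points) with its standard error (bars) in *KD-TIP60, *WT-TIP60 and MSCV empty-vector cells for the 10 called exons and ADD3. All 11 exons, which were picked in *KD-TIP60 cells, lie on the same side of 0 in the 3 lines. MARK3 shows the largest gap between the *KD-TIP60 and *WT-TIP60 values, −0.42 against −0.22.

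Event reads in RPM gave a proxy of expression over the exons of an event, which is not a gene count. Log2 values with 0.5 added were compared with limma, with the same block, over 5155 events of 3256 genes that were listed in all 4 *KD-TIP60 libraries with a mean of 10 or more event reads. With TIP60 siRNA 139 events changed (2.7%), 96 lower (1.86%) and 43 higher (0.834%), and 946 had an unadjusted p under 0.05. On primary chromosomes the 117 called events fell in 67 genes and rose in 34. The median over all events was −0.14 on the log2 scale. With a median-of-ratios scaling it was 0.01, and 109 events passed (2.11%), 62 lower (1.2%) and 47 higher (0.912%). All 117 called events kept their direction under that scaling and 71 passed. Without the replicate block 0 events passed (241 at an unadjusted p under 0.05), and leaving out siControl replicate 1, siControl replicate 2 or siTIP60 replicate 2 left 5, 1 and 9.

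The 20 named genes, the 10 largest falls and 10 largest rises, were each taken at the called event with the largest difference, and these events all passed under the median-of-ratios scaling as well. At the event with the most reads of each gene 18 of the 20 passed, all but RCAN3 and FGFR3. TFPI, the inhibitor of tissue factor in blood clotting, had 162 and 237 RPM in the control libraries and 25.4 and 25.04 after TIP60 siRNA (−2.93 log2, SE 0.49, limma adjusted p = 0.0215), the largest fall. S100A4, a calcium-binding protein linked to cell motility, had 111 and 13 event reads against 17 and 1, with libraries numbered 2 lower under both siRNAs (−2.77, limma adjusted p = 0.0215). TPM1, an actin-binding tropomyosin, fell from 84.6 and 30.0 RPM to 12.7 and 8.61 (−2.22, limma adjusted p = 0.0215). PLOD2 (−2.40), a lysyl hydroxylase of collagen, PFKM (−2.37), a phosphofructokinase of glycolysis, CPT1B (−2.42), a mitochondrial fatty acid importer, and the receptor tyrosine kinase AXL (−2.30) fell too. So did RCAN3 (−2.76), PDLIM2 (−2.30) and MROH6 (−2.19), with limma adjusted p-values from 0.012 to 0.0453 for these 7. Their event reads with TIP60 siRNA were few, with 89 and 2 for PLOD2, 51 and 2 for PFKM and 8 and 4 for CPT1B. AXL had 14 and 3, RCAN3 10 and 1, PDLIM2 16 and 26 and MROH6 2 and 14. In PLOD2, PFKM and MROH6 the RPM values of the siRNAs overlapped between replicate numbers, so these falls hold only within pairs. The RCAN3 event with the most reads had 113 and 107 RPM against 60.9 and 38.3 and did not pass (−1.18, limma adjusted p = 0.248).

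Among the rises, MMP28, a matrix metalloproteinase of epithelia, went from 94.3 and 69.6 RPM to 645 and 1143 (3.40 log2, SE 0.36, limma adjusted p = 0.00257), with no overlap. FGFR3, a fibroblast growth factor receptor, had 11 and 1 event reads in the controls against 76 and 41 (3.69, SE 0.73, limma adjusted p = 0.0324), while its event with the most reads did not pass (1.68, 0.133). S100A2, a calcium-binding protein of epithelial cells, was the most abundant of the named genes and rose from 6227 and 4631 RPM to 21595 and 17375 (1.85, limma adjusted p = 0.0215). AREG, a ligand of the EGF receptor, rose from 302 and 416 to 1526 and 1019.6 (1.81, 0.0324). The drug and nucleotide exporter ABCC5 (2.01), the amidase WDYHV1 (2.003), FAM84A (2.08), FAHD2B (2.11) and TP53I3 (1.82) rose as well, with limma adjusted p-values from 0.00295 to 0.0215.

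SLC37A2, a sugar phosphate transporter of the endoplasmic reticulum, rose from 349 and 246 RPM to 1254 and 988 (1.93, SE 0.20, limma adjusted p = 0.00257). The inclusion of its 57-nt exon was 0.40 and 0.57 in the controls against 0.13 and 0.15, a difference that did not pass (−0.345, limma adjusted p = 0.145). TP53I3 was the only gene that passed for both inclusion and event reads, and for the other 9 genes with a called exon the event reads did not pass.

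**Figure D4:**
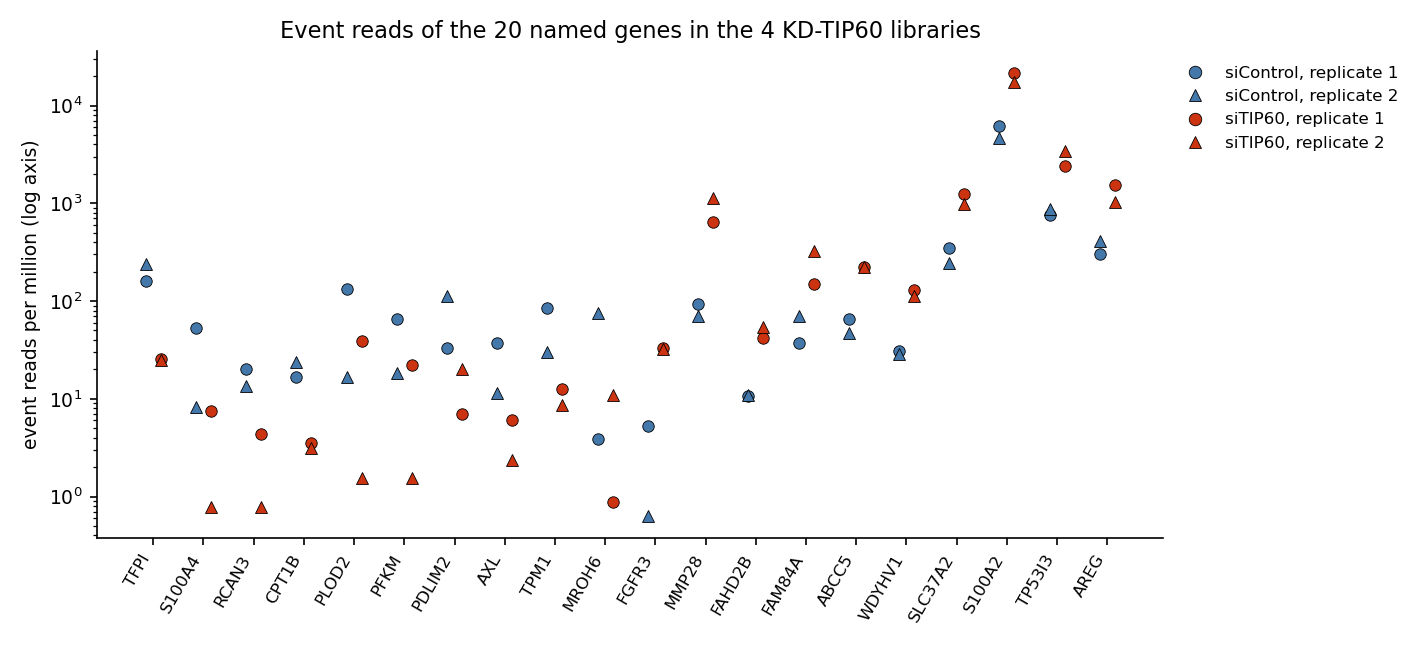
Event reads in RPM (log axis) of the 20 named genes in each *KD-TIP60 library, falls on the left from TFPI to MROH6 and rises on the right from FGFR3 to AREG; circles are replicate 1 and triangles replicate 2. Within each replicate number the siTIP60 library (red) lies on 1 side of the siControl library (blue) for all 20 genes. They were picked for large differences with the replicate number as a block, which favours this. Of all tested events on primary chromosomes 40.2% were lower in both pairs. Levels of S100A4, PLOD2 and MROH6 differ severalfold between replicate numbers.

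Genes of the p53 list moved in both directions. Of its 28 genes with a tested event, 2 fell and 1 rose, against 2.06% and 1.04% of all 3256 genes. CCNG1, cyclin G1 and a classical p53 target, had the smallest adjusted p of all events: its event fell from 2269 and 907 RPM to 483 and 213 (−2.16, SE 0.18, limma adjusted p = 0.00199), and a second CCNG1 event changed by −2.12. FAS, the death receptor, fell from 106 and 38.3 to 32.0 and 9.39 (−1.84, 0.0215). TP53I3 rose from 755 and 882 to 2397 and 3460.2. CDKN1A, the cell cycle inhibitor p21 and a classical p53 target, had 563 and 594 against 768 and 1168 in its event with the most reads and did not pass (0.71, limma adjusted p = 0.136). Events of MDM2, the ubiquitin ligase of p53, did not pass in either direction. The median over the 68 events of the list was −0.31, against −0.14 over all events on primary chromosomes. Genes with several events, such as BCL2L13 and MDM2, weigh more in this median, so it does not describe the 28 genes equally.

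In a list for cholesterol synthesis and its control, 4 of 10 genes with a tested event fell and none rose, against 2.06% of all 3256 genes with a called fall. This list of 28 genes was drawn up after several of its members had been seen among the falls, so that its count is a description. At the event with the most reads of each gene, 8 of the 10 were lower in both pairs, as were 39.7% of all genes, and the median was −1.18 against −0.12 over all genes. SREBF2, the transcription factor that induces the pathway, fell from 209.7 and 312 RPM to 84.2 and 89.2 (−1.56, SE 0.30, limma adjusted p = 0.0256). INSIG1, which holds that factor in the endoplasmic reticulum when sterol is plentiful, fell from 385 and 361 to 165 and 97.0 (−1.56, 0.0256).

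The synthesis enzymes FDPS, which makes farnesyl diphosphate, and FDFT1, which makes squalene from it, fell as well. The FDPS event with the most reads went from 825 and 389 RPM to 357 and 174 (−1.19, SE 0.24, limma adjusted p = 0.0320), and the other FDPS events, of which 1 overlaps it, by −1.51 and −1.23. FDFT1 went from 627 and 488 to 347 and 197 (−1.08, limma adjusted p = 0.0244). With the median-of-ratios scaling these events of FDPS and FDFT1 missed the threshold (0.073 and 0.055), while SREBF2 and INSIG1 passed. MSMO1, a sterol methyl oxidase, had 306 and 502 RPM against 158 and 124 and did not pass (−1.49, limma adjusted p = 0.0672). NSDHL, a sterol dehydrogenase, had 30.8 and 12.8 against 30.3 and 13.3.

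**Figure D5:**
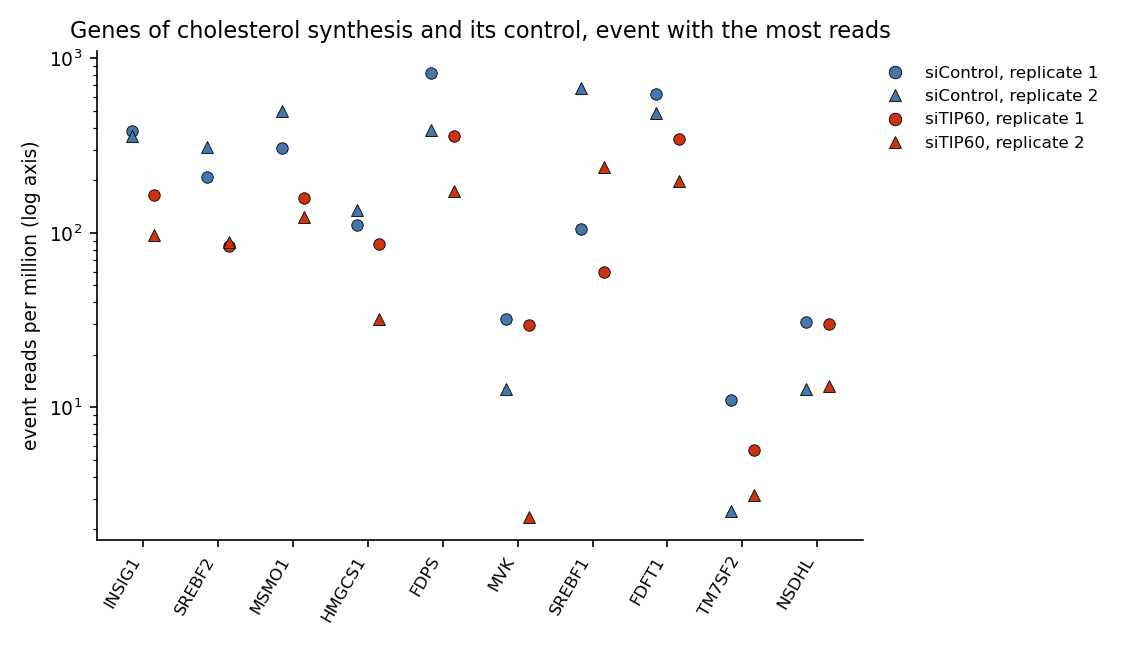
Event reads in RPM (log axis) of the 10 genes of cholesterol synthesis and its control with a tested event in each *KD-TIP60 library, for the event with the most reads of each gene, ordered by the fitted difference. From INSIG1 to FDFT1 both siTIP60 libraries (red) lie below the siControl library (blue) of the same replicate number, and NSDHL shows no separation.

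Event reads were counted over the other lists too, against 2.06% of all 3256 genes with a called fall and 1.04% with a called rise. With 1 or 2 genes in a direction, the counts that follow are a description. In the chromatin list of 36 genes JADE2 fell in event reads (3162 and 4023 RPM against 941 and 1164, −1.77, limma adjusted p = 0.00295), as did DAXX (−1.24), a histone chaperone, and BRD2 (0.97), a bromodomain protein, rose. In the actin list 1 of 37 genes fell (TPM1), and in the epithelial-mesenchymal list of 36 genes PLOD2 and CSNK1G3 (−0.80) fell and SLC37A2 rose. Of 38 kinase and phosphatase genes CSNK1G3 fell and FGFR3 rose, and of 3 mesenchymal markers S100A4 fell. The other members of that list did not pass and lay on the other side of 0: the FN1 event with the most reads had 290.0 and 81.7 RPM against 876 and 328 (1.80, limma adjusted p = 0.184) and that of DCN 39.9 and 93.9 against 44.7 and 136 (0.35, 0.831), and the median over the 8 events of the list was 0.69. No gene passed among 6 of the TIP60 complex, 10 SR, 11 hnRNP, 14 other splicing, 13 small-GTPase, 21 DNA damage, 24 cell cycle, 23 RNA decay and translation and 7 epithelial genes.

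Set beside the other lines, the 117 called read events had the same direction in 113 cases in *WT-TIP60 cells and in 117 in empty-vector cells. The share of all tested events with the same direction is not given here, so these counts are a description of picked events. In the same fit, 1 of 5141 events (0.0195%) was called in *WT-TIP60 cells and 148 (2.88%) in empty-vector cells, 98 lower (1.91%) and 50 higher (0.973%). The 1 event in *WT-TIP60 cells was the CCNG1 event, with −2.02 there, −2.16 in *KD-TIP60 and −2.13 in empty-vector cells. Of the 117 events called in *KD-TIP60 cells, 75 also passed in empty-vector cells, which is 64.1% of the first and 57.3% of the 131 such events of the second. The 79 lower events had a median of −1.46 with the inactive copy, −1.29 with the empty vector and −0.74 with the active copy, and the 38 higher events 1.49, 1.32 and 0.87. Since these events were picked in *KD-TIP60 cells, the 83 lower and 48 higher events picked in empty-vector cells are given too. They had medians of −1.24 and 1.17 with the inactive copy and −0.82 and 0.76 with the active copy. Of these 131 events 75 were also called in *KD-TIP60 cells, from the same fit, so this set is not free of that picking.

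The called genes of the cholesterol list, SLC37A2 and MMP28 show how the lines compared for single genes. INSIG1 differed by −1.56 in *KD-TIP60, −1.997 in empty-vector and −0.18 in *WT-TIP60 cells. In the same order SREBF2 differed by −1.56, −1.44 and −0.97, FDPS (event with the most reads) by −1.19, −1.09 and 0.01, and FDFT1 by −1.08, −1.23 and −0.39. SLC37A2 differed by 1.93, 1.54 and 0.65, and MMP28 by 3.40, 3.38 and 1.69. The test of the difference itself, which was added after these values had been seen, called 0 of 5155 events (0%) between *KD-TIP60 and *WT-TIP60 cells (173, or 3.36%, had an unadjusted p under 0.05) and 0 (0%) between *KD-TIP60 and empty-vector cells (59, or 1.14%). A greater response with the inactive than with the active copy was therefore not established for any single event by limma.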

How the data were processed

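Inclusion levels and read numbers came from 12 RNA-seq libraries of MCF10A cells, 1 table each, made with a stranded mRNA kit from TRIzol RNA, per the labels' protocols. Per the submitters' processing notes, the authors aligned reads with STAR to hg38; their versions and the event annotation are not stated. Per the file headers, the authors deposited for each event of 2 isoforms a fraction, namely MISO's posterior mean of inclusion. It is rounded to 2 decimals and not scaled to library size. The deposited tables also hold raw read counts per event by the isoforms they fit, from which isoform-specific reads and RPM were computed. These reads are not unique molecules, so limits from counts cover counting error only.

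Events were named with GENCODE release 29, whose exon coordinates match the files. Groups and replicate numbers come from the sample titles. limma 3.58.1 in R 4.3.3 fitted 6 groups and the replicate block to all 12 libraries (5 residual degrees of freedom), with an empirical Bayes trend and the robust option, two-sided. An exact test of 2 libraries against 2 cannot go below p = 0.333. In 16 of the 3002 events some library of another line did not list the event and entered as missing. The block was used because same-numbered libraries deviated together: Pearson r of their deviations from the group means, across events, was 0.703 to 0.78 for inclusion and 0.589 to 0.904 for log2 event reads over the 15 pairs of groups. The fits were tested on simulated data.

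The rule named called exons whose libraries did not overlap, filled up by p to 12 falls and 8 rises, from each list the 2 members with the smallest p, the 10 largest falls and rises in event reads, and the 5 events of smallest p between lines. List members beyond these were named after their values were seen. The members and lists were chosen with earlier results of these data known. Alternatives covered the block, libraries, read minimum, scale, measure, model, scaling and each library left out. Events on alternate contigs (181 kept) were tested but not named. A few genes are not reported here, and the list for cholesterol was counted without them.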

Additional observations from a re-analysis of the deposited data

How the results depend on the processing

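Without the replicate block limma called 1 exon for inclusion and 0 events for event reads, against 10 and 139 with it, and the block changed no call in the differences between lines, where 0 passed with and without it. The number of exons called was 27 on log2 odds (24 lower, 3 higher), 5 on the share of isoform-specific reads, 1 with the quasi-binomial model and 0 from the 4 *KD-TIP60 libraries alone. From those 4 libraries 698 events were called for event reads. With 1 library left out the exons called ranged from 0 (without siControl replicate 1) to 23 (without siTIP60 replicate 1), and event reads from 1 (without siControl replicate 2) to 94. Each such fit leaves a group with a lone library, assumed to vary like the others. Of 510 values for named exons, 428 kept direction and side of the threshold, 69 lost it and 6 gained it; of 224 for named event reads, 144 kept both and 80 lost it. The 7 that turned direction were all far from the threshold. BRD8 had -0.0661 in the quasi-binomial model (log2 odds), and between -0.043 and 0.103 with 1 library left out (-0.017 without siControl replicate 2, -0.043 without siTIP60 replicate 2), CHEK1 0.00337 and CDH1 0.769 in the quasi-binomial model, and DCN between -0.009 and 0.019 with 1 library left out (-0.003 without siControl replicate 2, -0.009 without siTIP60 replicate 1). The cause was not tested. Depth limits the rarer forms: siTIP60 replicate 2 had a median of 47.5 isoform-specific reads per kept event against 71 to 102 in the other 3 libraries.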

Other observations

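Beyond the named genes, the event reads of *KD-TIP60 cells held further changes, picked here after their values were seen. GSTP1, a glutathione transferase, rose from 5463 and 7663 RPM to 13086 and 26906 (1.54 log2, limma adjusted p = 0.0202). CD55, a membrane inhibitor of complement, rose from 374 and 243 to 899 and 779 (1.47, 0.0175). The AP-1 subunit FOSL1 rose from 619 and 935 to 1247 and 1676 in its event with the most reads (0.93, limma adjusted p = 0.0256), but not with the median-of-ratios scaling (0.0617).

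Falls were picked in the same way. NRP2, a co-receptor for semaphorins, fell from 373 and 140.5 RPM to 142 and 55.6 (-1.36, limma adjusted p = 0.0202), the adhesion G protein-coupled receptor ADGRG6 from 775 and 413 to 217 and 106 (-1.89, 0.00257), and the protease inhibitor SPINT2 from 566 and 3125 to 210 and 868 (-1.64, 0.00257). ITGB1, the common beta subunit of many integrins, fell from 7139 and 3972 to 3805 and 2414 (-0.81, 0.0215). ITGB1 missed the threshold with the median-of-ratios scaling (0.178). SPINT2 differed strongly between the libraries numbered 1 and 2 under both siRNAs.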
